A study of Mus musculus with 14 samples.

Results

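YAP-only H3K4me1 regions inside genes are stretches of mouse liver chromatin that carried H3K4me1, the monomethylated form of lysine 4 of histone H3, in the list for YAP livers and not in the list for wild-type (WT) livers. A region was counted when it lay wholly inside the body of a protein-coding gene on chromosomes 1 to 19, X or Y (mm10) and shared no base with any WT H3K4me1 region. This gave 4226 regions, of 4802 YAP-only regions anywhere and 6274 YAP H3K4me1 regions in all. The H3K4me1 lists themselves chose the regions, so their presence in YAP and absence in WT is a description and not a result. Chromatin came from livers of C57BL/6 mice, either wild type or transgenic for an inducible YAP, and was immunoprecipitated for H3K4me1, H3K4me2 or LSD1 with 2 replicates per antibody and genotype and 1 input library per genotype. Every label names doxycycline in the drinking water, 50 mg/L over 10 days, as the inducer, and it is not said whether WT mice drank it too. The labels used here do not name the promoter that drives the transgene, the cells it acts in, or the age and sex of the mice. The authors deposited 1 list per antibody and genotype, so replicates cannot be compared and no test has a p-value. Intervals are 95% intervals for counting error that treat regions as independent.

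H3K4me1 marks enhancers, the distant switches of genes, both when they are active and when they are poised, and it is laid down mainly by the KMT2C and KMT2D methyltransferases. H3K4me2 covers active promoters and the stronger enhancers. LSD1, encoded by Kdm1a, removes methyl groups from both forms, and YAP with its TEAD partners acts largely through enhancers away from gene starts. Absence from a list means only that a region did not pass the authors' calling there, because regions of weak enrichment can fall on either side of a threshold.

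Some of the regions reached an annotated start inside the host. Each region lies wholly inside a gene body. The start it reached is therefore an internal start of the host, or the start of another gene within it. None of the windows printed here is the outer 5′ boundary of its gene. Of the 4226, 19 shared a base with the 250 bases before a RefSeq start, a share of 0.450%, and 6 of the 4100 WT-only regions inside genes did, a share of 0.146%. The 5 windows printed here were chosen for the regulatory role of the gene or for H3K4me2 that differed there. Each is read 5′ to 3′ on the strand of its gene (RefSeq, GRCm38.p6, which has mm10 coordinates), ends at the base before the start, and has in capitals the bases inside the YAP-only H3K4me1 region.
Nf2 (chr11:4833136-4833385, minus strand): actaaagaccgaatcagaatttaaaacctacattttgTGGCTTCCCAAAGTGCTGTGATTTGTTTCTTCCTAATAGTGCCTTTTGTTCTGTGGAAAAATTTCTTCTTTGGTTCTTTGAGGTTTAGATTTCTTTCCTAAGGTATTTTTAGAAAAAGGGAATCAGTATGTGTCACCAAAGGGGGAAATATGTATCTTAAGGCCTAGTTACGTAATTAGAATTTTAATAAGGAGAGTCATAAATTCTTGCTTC
Gfi1 (chr5:107724344-107724593, minus strand): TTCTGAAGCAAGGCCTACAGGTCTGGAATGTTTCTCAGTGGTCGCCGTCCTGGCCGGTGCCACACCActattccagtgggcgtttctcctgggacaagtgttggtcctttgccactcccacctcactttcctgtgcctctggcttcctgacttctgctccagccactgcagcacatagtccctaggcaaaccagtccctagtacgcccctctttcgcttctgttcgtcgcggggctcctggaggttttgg
Rabgef1 (chr5:130186930-130187179, plus strand): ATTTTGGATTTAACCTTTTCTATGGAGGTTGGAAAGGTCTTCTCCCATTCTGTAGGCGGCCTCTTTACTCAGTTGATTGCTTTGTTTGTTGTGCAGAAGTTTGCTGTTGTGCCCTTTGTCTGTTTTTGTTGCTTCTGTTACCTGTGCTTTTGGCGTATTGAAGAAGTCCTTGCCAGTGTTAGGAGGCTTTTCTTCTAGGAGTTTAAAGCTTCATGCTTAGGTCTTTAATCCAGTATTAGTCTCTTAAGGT
Syne3 (chr12:104998678-104998927, minus strand): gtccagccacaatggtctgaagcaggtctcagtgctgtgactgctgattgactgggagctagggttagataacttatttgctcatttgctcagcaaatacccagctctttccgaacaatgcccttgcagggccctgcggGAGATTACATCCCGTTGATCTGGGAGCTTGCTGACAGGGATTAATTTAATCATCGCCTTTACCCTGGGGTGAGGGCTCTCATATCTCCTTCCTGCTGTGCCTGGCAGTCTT
Usp6nl (chr2:6352486-6352735, plus strand): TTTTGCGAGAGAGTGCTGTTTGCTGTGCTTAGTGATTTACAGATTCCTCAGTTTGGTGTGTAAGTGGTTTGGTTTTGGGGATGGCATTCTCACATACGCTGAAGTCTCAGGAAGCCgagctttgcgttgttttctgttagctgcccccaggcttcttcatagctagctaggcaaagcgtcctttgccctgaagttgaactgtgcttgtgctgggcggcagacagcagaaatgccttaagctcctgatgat
In Nf2, which encodes merlin, an upstream activator of the Hippo kinases, 213 of the bases lay in a region with an authors' score of 36, 1.69 kb from the nearest WT H3K4me1 region. H3K4me2 covered 215 bases of that Nf2 region in WT and none was listed on it in YAP. Gfi1 encodes a repressor that brings LSD1 to DNA. Its region held 67 bases of the window, lay 97.2 kb from WT H3K4me1 and was covered by H3K4me2 over all 334 bases in both genotypes. All 250 bases before this internal start of Rabgef1, a Rab5 exchange factor, were inside a region without H3K4me2. At Syne3, a nuclear envelope protein linked to the cytoskeleton, and at Usp6nl, a Rab GTPase-activating protein, H3K4me2 covered 231 and 198 bases in YAP and none in WT. The letters GGAATG, the core that TEAD factors bind, were searched on both strands and stood in the Gfi1 window, inside the capitals, and in none of the other 4. Of the 22 start windows that a YAP-only H3K4me1 region reached, 2 held it (9.09%), against 12.6% of all 32851 windows of this length. In the window other than that of Gfi1, in Crtc3, it stood outside the H3K4me1 region. Of the 22 windows, 7 were of genes with other than predicted symbols. Windows of a predicted gene in Arap1 overlapped each other, as did windows of another in Plekha7, so some bases were counted repeatedly.

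The regions were short. Their median length was 298.5 bp, from 178 to 1292 bp, and the authors' signal, an enrichment value, ran from 1.81 to 4.56 with a median of 2.83. The authors' score, 10 times the −log10 p-value, had a median of 41 and a highest value of 100, and 59.1% had a −log10 q-value above 0. H3K4me1 regions found in both genotypes, taken from the same YAP list, were longer, with a median of 393 bp, and had a median score of 47 and a −log10 q above 0 in 73.5%. The rule of 1 shared base divides near neighbours. Regions in Zfp395 and in Oaz2, an antizyme of polyamine metabolism, touched a WT region without sharing a base, and one in A1cf, an RNA-editing cofactor, lay 1 base away. Just outside the rule, regions in Mapk6, Herc1 and Arid5b shared 2, 3 and 4 bases with WT. Under 50 bases separated 58 of the YAP-only regions from WT, and 57 regions counted as common shared at most 50 bases. No H3K4me1 region was listed on X or Y in either genotype, although the YAP H3K4me2 list had 962 there.

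Sec63, a part of the protein channel of the endoplasmic reticulum, and Rai1, a chromatin-associated regulator, held a region each with a score of 100. The region in Sec63 (chromosome 10, 42765249 to 42765655) was 0.13 kb from WT H3K4me1 and fully covered by H3K4me2 in both genotypes. The region in Rai1 (chromosome 11, 60142728 to 60143159) was 400.67 kb from any WT region, and H3K4me2 covered 210 of its 432 bases in YAP and none in WT. Regions in Srgap2, a GTPase-activating protein (score 97), the RNA-binding gene Atxn2 (92), Ypel2 (92), the zinc-finger gene Rreb1 (92), the kinase genes Map3k1 (92) and Ptk2b (92), Nr5a2, a nuclear receptor of bile acid synthesis (87), and Eea1, an early endosome gene (85), followed. Distance to WT H3K4me1 among these ranged from 0.362 kb in Atxn2 and 0.508 kb in Rreb1 to 653 kb in Eea1. The longest regions were 1292 and 1281 bp, both in Asap1, an Arf GTPase-activating protein and YAP target, then 1237 bp in Hp1bp3, 1224 bp in Srgap2 and 1183 bp in Lnpep.

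The regions lay in 1922 host genes, 8.78% of the 21887 protein-coding genes, and 30 regions lay in more than 1 gene. Since H3K4me1 defined the hosts, this share is a description. Host genes were long, with a median of 64.6 kb against 17.2 kb for all genes. Over 5 equal classes of gene length the share of genes with such a region went from 0.114% through 1.83%, 5.19% and 12.7% to 24.1% in the longest. Counted per length, however, genes of the fourth class held most, with 5.80 regions per Mb, and the longest class 3.78. A single region was held by 1041 hosts, and 192 hosts had at least 5. Those 192 genes together held 1435 regions, 34.0% of them all. Regions of 1 gene are therefore not independent of each other.

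Srgap2 stood first with 30 YAP-only regions spread over 235 kb, next to 4 WT H3K4me1 regions in the whole gene (chromosome 1, 131285251 to 131527531). Ptprj, a receptor tyrosine phosphatase, held 21 against 8 WT regions. Zfp608, a zinc-finger gene, held 16 against 5, Magi1, a scaffold of cell junctions, 15 against 4, Rapgef2, an exchange factor for Rap GTPases, 14 against 4, and Pkp4, a relative of the plakophilins of cell junctions, 14 against 5. With YAP regions found in both lists counted too, which gave 25 in Ptprj and 15 in Pkp4, YAP regions outnumbered WT regions by at least 3 to 1 in these 6 genes. The genes were picked for their YAP-only regions, so this excess is a description. Others of the 10 hosts with most regions had them beside many WT regions. Mtss1, which shapes membranes and actin, held 18 YAP-only regions but 28 WT regions, 21 of them WT-only. Ankrd11, a chromatin regulator, held 16 beside 25 WT regions, Jak1, the kinase of cytokine receptors, 16 beside 15, and Rbpms, an RNA-binding gene, 14 beside 10. In Mtss1, Jak1 and Ankrd11 the median distance to a WT region was 1.59, 1.86 and 2.41 kb, in Ptprj, Pkp4 and Zfp608 2.76, 2.97 and 3.02 kb, in Rbpms 5.77 kb, in Srgap2 9.38 kb, and in Rapgef2 and Magi1 14.6 and 16.9 kb. Scores within Srgap2 ran from 24 to 97 and within Ptprj from 30 to 65.

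**Figure D1:**
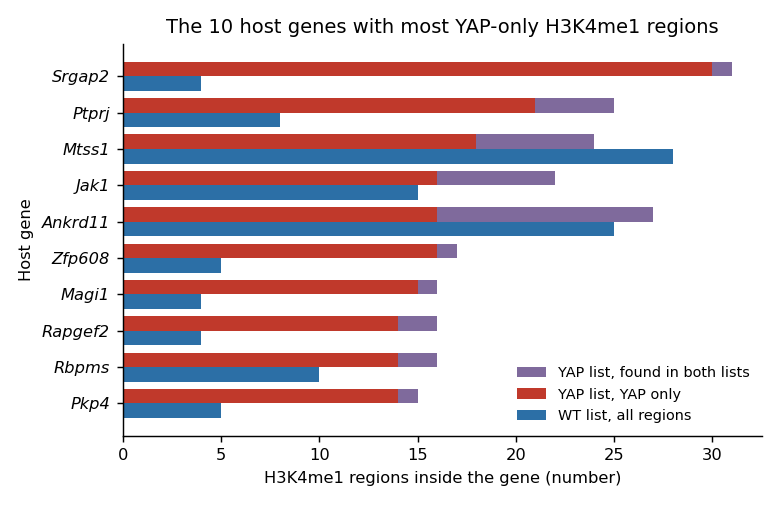
H3K4me1 regions inside the 10 host genes with most YAP-only regions: the x axis gives the number of regions, red bars are YAP-only regions, purple extensions are YAP regions also found in WT, and blue bars are all WT regions. Srgap2 has 30 YAP-only and 4 WT regions, whereas Mtss1 has 18 YAP-only and 28 WT regions.

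No WT H3K4me1 region at all lay in 884 of the 1922 hosts (46.0%), and these held 1269 of the regions (30.0%). The other 1038 hosts (54.0%, 51.8% to 56.2%) held at least 1 WT region. Hosts shared with WT-only regions numbered 958, which is 49.8% of the hosts of YAP-only regions and 57.5% of the 1665 hosts of WT-only regions. Among hosts without a WT region, 16 held at least 5 YAP-only regions, a limit chosen after the values were seen. They were Rai1 with 8, the signalling adaptor Pik3ap1, Nos1ap and the deubiquitinase Otud7b with 7 each, the junction protein Plekha7 and Bcl2, the inhibitor of cell death, with 6 each, and 10 genes with 5 each. Over all 14139 genes with any H3K4me2-covered base, covered bases were more in YAP in 5826 and fewer in 8217. Over all hosts without a WT region they were more in 405 and fewer in 470. Among the 16 they were more in 11 and fewer in 5. Bicc1, an RNA-binding gene, went from 2.52 to 7.84 kb, Otud7b from 4.56 to 8.38 kb, Pik3ap1 from 6.23 to 10.0 kb and Crim1, a YAP target, from 5.03 to 7.48 kb. Fewer bases were covered in YAP in Lrrfip2 (5.02 to 2.88 kb), the DNA repair gene Rad51b (10.8 to 8.34 kb), Ifi47 (8.13 to 7.43 kb), Rb1 (11.7 to 10.96 kb) and Sh3bp5 (8.79 to 8.60 kb).

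Positions followed gene starts at a distance. Gene direction was known from RefSeq start sites for 1551 hosts, and 3406 regions in 1 such host each could be placed along it. The fifth of the gene nearest its 5′ end held 41.0% of them (39.3% to 42.6%), the next 27.7%, then 17.7% and 8.60%, and the fifth at the 3′ end 5.05%. WT-only regions showed nearly the same order, from 43.3% to 4.23%. The median distance from the 5′ boundary was 17.3 kb for YAP-only and 13.9 kb for WT-only regions. Only 1.49% of the YAP-only regions (1.17% to 1.90%) were within 1 kb of an annotated start of a protein-coding gene, and 22.4% within 5 kb. The start windows of the hosts, here 250 bases before to 50 after a start, carried H3K4me2 in 83.3% of the 1551 genes in WT and in 81.1% in YAP, against 51.9% and 51.8% of all 17492 genes with a known start. Host genes were thus more often marked at their starts than other genes, in both genotypes.

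The distance to the nearest WT H3K4me1 region had a median of 7.30 kb, with quartiles of 1.19 and 98.9 kb. Of the YAP-only regions, 22.2% (20.9% to 23.4%) were within 1 kb of a WT region, 53.7% (52.2% to 55.2%) within 10 kb and 75.1% (73.8% to 76.4%) within 100 kb, while 109 were more than 1000 kb away. WT-only regions inside genes lay nearer to YAP H3K4me1, with a median of 3.56 kb. Their share within 10 kb was 65.1%, and the difference of YAP-only minus WT-only was -11.4 percentage points (-13.5 to -9.30). Within 100 kb the difference was -9.70 points (-11.4 to -7.99). The YAP list is the longer one, with 6274 against 5905 regions. Regions are numbered up to 16113 in the YAP list and 10563 in the WT list, so both lists may have been filtered. A −log10 q above 0 was given for 59.1% of YAP-only and 29.9% of WT-only regions inside genes. These differences between the lists bear on every comparison of YAP-only with WT-only regions, and their part in the distances was not tested. The other YAP regions were nearer than the WT regions, with a median of 3.598 kb from a YAP-only region to the next region of its own list. Where the host held a WT region the median distance to WT was 2.39 kb, and where it held none 246 kb.

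**Figure D2:**
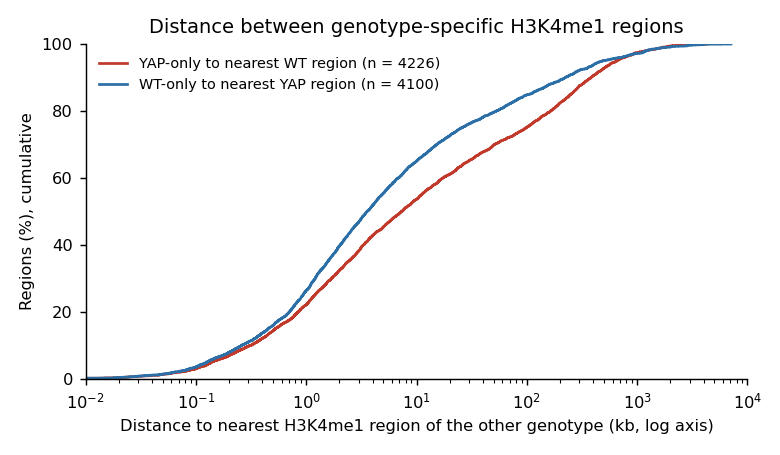
Cumulative share of regions (y axis, percent) by distance to the nearest H3K4me1 region of the other genotype (x axis, kb, log axis, values under 0.01 kb drawn at 0.01), for 4226 YAP-only regions (red) and 4100 WT-only regions (blue). The red curve passes 50% at 7.30 kb and the blue at 3.56 kb.

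The regions farthest from WT H3K4me1 were of modest score. Kynu, the kynureninase of tryptophan breakdown, held 2 regions, both 4.34 Mb from any WT region, each with a score of 36. Car2, a carbonic anhydrase, held a region 4.29 Mb away (score 32) and the adhesion gene Ncam2 one 4.01 Mb away (score 47). Gtdc1 (3.801 Mb), the transcription factor gene Klf11 (3.52 Mb), Trappc12 (3.201 Mb), Trim26 (3.09 Mb), Eva1a (2.83 Mb) and Fpgt (2.65 Mb) followed. Among these 10 regions, H3K4me2 was listed in both genotypes on those in Ncam2 and Eva1a, in YAP alone on that in Klf11, and on none of the others.

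H3K4me2 comes from other libraries than those that chose the regions, and it was equally common on them in both genotypes. It was listed on 1664 of the 4226 in WT (39.4%, 37.9% to 40.9%) and on 1666 in YAP (39.4%, 37.96% to 40.9%). Of these, 1310 carried it in both, 356 in YAP only (8.42%) and 354 in WT only (8.38%), and 2206 (52.2%) in neither. Which genotype was higher turned with the rule: the shares were 35.4% in WT and 37.1% in YAP when a WT region within 1 kb also removed a region, and 43.3% and 41.8% when only a reciprocal overlap of 50% did. The bases covered were as alike, with 516 kb in WT and 520 kb in YAP. On WT-only H3K4me1 regions inside genes, by contrast, H3K4me2 was listed on 49.3% in WT and 35.5% in YAP, with 696 in WT only and 129 in YAP only. On H3K4me1 regions of both genotypes it was listed on 65.5% in WT and 54.1% in YAP. The share with H3K4me2 in YAP only was 5.28 points higher on YAP-only than on WT-only H3K4me1 regions (4.29 to 6.28), and the share with it in WT only was 8.60 points lower (7.18 to 10.0). YAP-only H3K4me1 thus stood apart from the other 2 kinds of region in having no surplus of WT H3K4me2, and it had none in YAP either. Over all protein-coding gene bodies H3K4me2 covered 3.82% of bases in WT and 3.56% in YAP, so in both genotypes it was far denser on these regions.

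**Figure D3:**
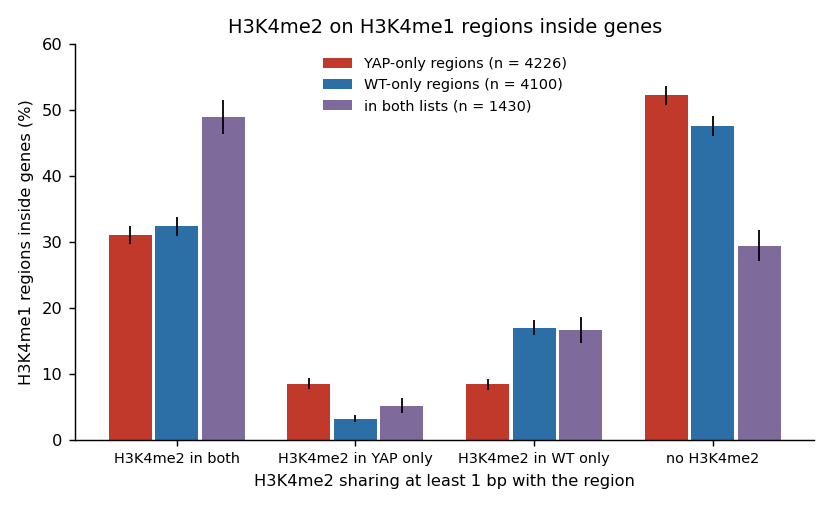
Share of H3K4me1 regions inside genes (y axis, percent, with 95% Wilson intervals) that carry H3K4me2 in both genotypes, in YAP only, in WT only or in neither, for YAP-only (red), WT-only (blue) and common regions (purple). On YAP-only regions the YAP-only and WT-only classes are level at 8.42% and 8.38%, while on WT-only regions they are 3.15% and 17.0%.

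The surroundings differed from the centres. At the midpoint of the YAP-only regions 35.2% lay inside an H3K4me2 region in each genotype, but 2 kb downstream in coordinates it was 23.8% in WT and 21.0% in YAP, and 5 kb away 16.9% and 14.7%. At the midpoint of WT-only regions the shares were 46.5% in WT and 32.4% in YAP, and 21.2% and 16.2% at 5 kb. WT thus had slightly more H3K4me2 around the YAP-only regions, and the lines met at their centres.

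**Figure D4:**
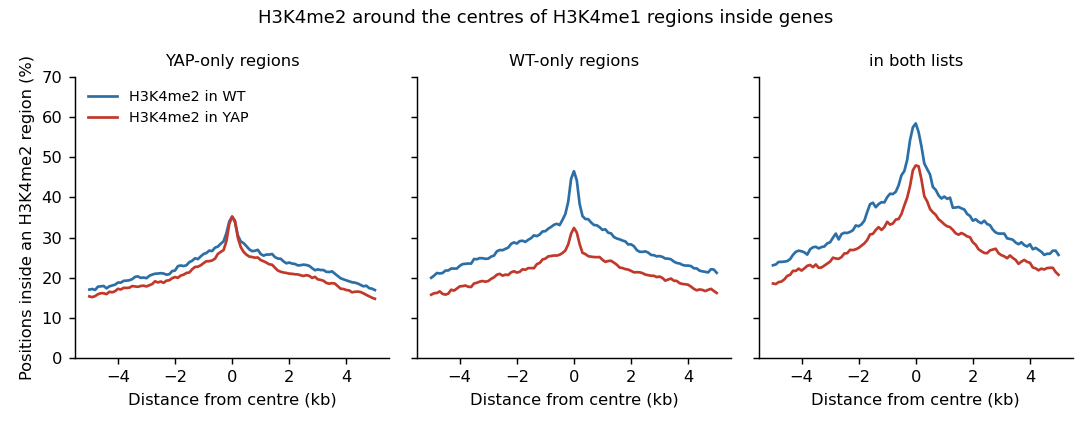
Share of positions inside an H3K4me2 region (y axis, percent) by distance from the centre of H3K4me1 regions inside genes (x axis, kb), for YAP-only, WT-only and common regions, with H3K4me2 of WT in blue and of YAP in red. Both lines meet at 35.2% at the centre of YAP-only regions and stay apart at 46.5% and 32.4% at the centre of WT-only regions.

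The balance moved with distance to WT H3K4me1. Within 1 kb of a WT region, 63 YAP-only regions had H3K4me2 in YAP only and 116 in WT only. From 1 to 10 kb the counts were 109 and 119, from 10 to 100 kb 84 and 51, and beyond 100 kb 100 and 68. In hosts without a WT region they were 132 and 84, and H3K4me2 was listed on 45.1% of these regions in YAP (42.4% to 47.8%) and 41.3% in WT (38.6% to 44.0%). In hosts with a WT region they were 224 and 270. The median score was 41 in each of these distance ranges. Grouped by score instead, the median distance to WT H3K4me1 was 9.10 kb for the 1700 regions of lowest authors' score. It was 7.22 kb for the 1584 in the middle and 4.83 kb for the 942 of highest score. From lowest to highest score, the counts with H3K4me2 in YAP only and in WT only were 122 and 125, 142 and 145, and 92 and 84. The part of score in the balance was not tested.

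Among the regions on H3K4me2 listed in YAP only, that in Rai1 had the highest score (100). It was followed by regions in Ppp3ca, the catalytic subunit of calcineurin (score 85, with all 940 bases covered in YAP), the taurine transporter Slc6a6 (71), Nfia, a transcription factor of the nuclear factor I family (70), the signalling gene Bcr (65), Pik3ap1 (65), the kinase gene Pak4 (65), the phosphatase subunit Ppp2cb (65), Nuak2, a kinase and YAP target (65), and Tmcc3 (65). In Rai1, Pik3ap1, Pak4 and Tmcc3 the region was over 100 kb from WT H3K4me1, and in Nfia, Ppp2cb and Nuak2 it was 0.766, 0.779 and 0.389 kb away. On H3K4me2 listed in WT only, the highest scores were in Rreb1 (92), Eea1 (85), Nr3c1, the glucocorticoid receptor (78), the corepressor gene Rere (78) and Rufy3 (78). All of these except Eea1 lay within 1.79 kb of a WT H3K4me1 region.

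Summed over gene bodies, H3K4me2 on the hosts was slightly lower in YAP, as over all genes. The change was the log2 ratio of covered bases, YAP to WT, with 500 bases added on each side, and was called when past 1.5-fold. The median was -0.09 over the 1913 hosts with any covered base and -0.05 over all 14139 such genes. More bases in YAP were called in 92 hosts (4.81%), against a background of 7.89% of all genes, and fewer in 175 (9.15%), against 8.01%. Host genes carried more covered bases than other genes, with a median of 4.76 kb in WT against 2.27 kb for all genes with any. In the longest class, hosts had more in 5.14% and fewer in 9.13%, and genes without a YAP-only region 11.3% and 11.4%. The hosts were not alike. Those without a WT H3K4me1 region had a median of -0.03, with more bases called in 62 (7.09%) and fewer in 60 (6.86%). Hosts of both YAP-only and WT-only regions had a median of -0.18, with 29 (3.03%) and 113 (11.8%). For comparison, genes with WT-only regions and no YAP region had a median of -0.19, with 7 (1.20%) and 81 (13.9%). Among the 192 hosts with at least 5 YAP-only regions, 22 had more (11.5%) and 19 had fewer (9.90%).

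**Figure D5:**
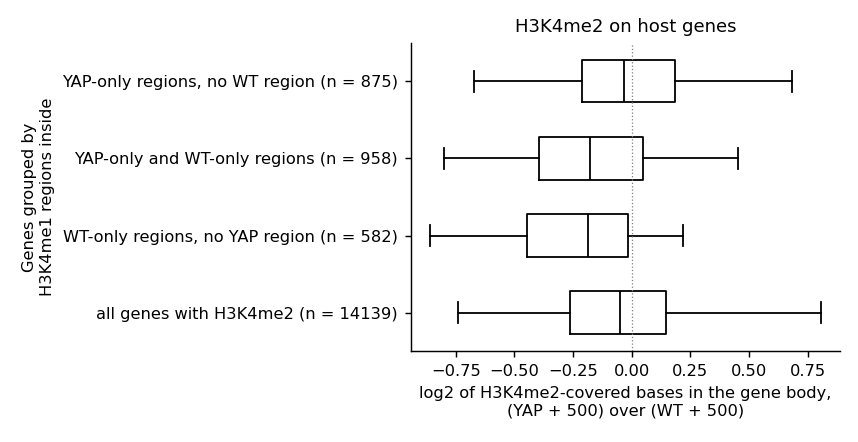
Change of H3K4me2-covered bases in the gene body (x axis, log2 ratio, YAP to WT, with 500 bases added on each side) for genes grouped by the H3K4me1 regions inside them; boxes give the quartiles and the median, whiskers the 5th and 95th percentiles. Medians are -0.03 for hosts of YAP-only regions without a WT region, -0.18 for hosts of both kinds, -0.19 for hosts of WT-only regions alone and -0.05 for all genes.

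Of the 10 hosts with most regions, H3K4me2-covered bases were more in YAP past 1.5-fold in 3 and fewer past it in 1. Srgap2 went from 7.02 kb in WT to 12.7 kb in YAP, Ptprj from 8.72 to 16.9 kb and Pkp4 from 5.23 to 9.34 kb, while Mtss1 went from 27.4 to 11.2 kb. Zfp608 (14.3 to 17.9 kb), Rapgef2 (15.9 to 18.2 kb), Magi1 (8.76 to 9.82 kb), Jak1 (12.0 to 8.09 kb), Ankrd11 (5.88 to 4.17 kb) and Rbpms (12.8 to 8.51 kb) stayed within it. The regions themselves carried H3K4me2 to different extents. In Srgap2 5 of 30 did in YAP and 3 in WT, in Ptprj 4 and 2 of 21, and in Pkp4 9 and 3 of 14, whereas in Mtss1 it was 5 in YAP and 11 in WT of 18.

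The hosts with the largest H3K4me2 gain held few H3K4me1 regions. Cd36, a fatty acid transporter and scavenger receptor, went from 2.23 to 10.9 kb and held 4 YAP-only regions and no WT region. Its regions lay 1.53 Mb or more from the nearest WT H3K4me1, and 1 of the 4 was on H3K4me2, in YAP only. Rundc3a (none listed in WT, 3.33 kb in YAP), Tinag (none listed, 2.79 kb), the Ras exchange factor gene Rasgrp3 (0.542 to 4.78 kb) and Myof, a membrane repair gene and YAP target (0.489 to 3.06 kb), held 1 region each. The largest falls were in Ttc39c, from 39.6 to 6.92 kb, Ccm2l (1.41 kb to none listed), the peroxisomal hydrolase Nudt7 (9.87 to 2.48 kb), Ranbp10 (10.9 to 3.11 kb) and Gbp10, of an interferon-induced GTPase family (1.06 kb to none listed). Gbp10 has close relatives among which reads can be divided, so its value is uncertain. Rasgrp3 and Cd36 are also expressed outside hepatocytes, and chromatin was from bulk liver, where more cells of a type and more mark per cell cannot be told apart.

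Genes of the YAP and Hippo pathways were described from lists chosen with earlier results known. Of 30 YAP-TEAD target genes, 8 held a YAP-only H3K4me1 region, 26.7% against 8.78% of all genes. Their lengths alone would give 3.86, from the shares of the 5 length classes. This number, like those by length below, takes no account of whether a gene is marked in liver. H3K4me2 was listed on 99.5% of hosts, 64.6% of all protein-coding genes and all 30 genes of this list. Asap1 held 11 beside 3 WT regions, Crim1 5 and no WT region, Wwc1, a Hippo activator, 5 beside 2, and Nuak2 4 beside 1. Tead1, which encodes a DNA-binding partner of YAP, held 2, and Amotl2, Ankrd1 and Myof 1 each, all of them without a WT region. WT-only regions lay in 3 genes of the list. H3K4me2 over the list had a median log2 of 0.27. The immediate targets Ccn1 and Ccn2 are short genes and held no H3K4me1 region in either genotype, and neither did Odc1, which makes the polyamine putrescine, or Kdm1a.

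Of 24 Hippo pathway genes, 11 held a region, where lengths alone would give 4.57. WT-only regions lay in 7 of the 24. Vgll4, a TEAD corepressor, held 9 beside 5 WT regions, Nf2 and the kinase Taok1 3 each, and the kinase Map4k4 2. Yap1 held 1 YAP-only region (chromosome 9, 7967552 to 7968116) beside 2 WT regions, 12.8 kb from the nearer of them, with H3K4me2 on 124 of its bases in YAP and none in WT. Wwtr1, which encodes the YAP relative TAZ, held 1 and no WT region. In Vgll4, 6 of the 9 regions carried H3K4me2 in both genotypes, and in Wwc1 none of 5 carried it in either. The 3 regions in Nf2 stood together between positions 4832323 and 4834593 of chromosome 11, around the internal start printed above.

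Signalling and cytoskeletal genes were often hosts. Of 35 genes of actin and adhesion, 18 held one, where lengths would give 7.18. Myh9, a nonmuscle myosin, held 11 beside 7 WT regions and 4 of them were on H3K4me2 in YAP only, as its covered bases went from 12.4 to 21.1 kb. Lpp, a zyxin relative, held 10 beside 1 WT region, and its H3K4me2 went from 12.6 to 7.84 kb. Actn4, an actin crosslinker, held 6 beside 11 WT regions, with 10.1 and 7.71 kb, and the focal adhesion gene Pxn 5 with no WT region, with 13.8 and 21.7 kb. Of 30 growth factor receptors, 16 held one, against 5.53 by length. Notch2 held 8 beside 2 WT regions with 3 of them on H3K4me2 in YAP only, Insr, the insulin receptor, 9 beside 18, and Egfr 7 beside 13 as its H3K4me2 went from 29.0 to 17.9 kb. WT-only regions lay in 14 genes of the first list and 13 of the second.

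Hepatocyte transcription factors and nuclear receptors held both kinds of region. Of 30, 15 held a YAP-only region, against 4.46 by length, and 15 a WT-only region, with 70 YAP-only regions against 122 WT-only ones. Rxra, the shared partner of nuclear receptors, and Nfia held 12 each beside 22 and 32 WT regions, Nr5a2 7 beside 7 with no region common to both lists, and Nfib 7 beside 23. H3K4me2 in Rxra went from 28.9 to 18.5 kb, and the list had a median log2 of -0.29. Genes of the liver's products were near the number their lengths give or below it. Of 30 secreted plasma protein genes the coagulation gene F5 and the plasminogen gene Plg held 1 each, and of 30 liver metabolism genes Elovl6 and Cpt1a, both of fatty acid metabolism, held 2 each. Lengths alone would give 1.71 and 3.34 genes. WT-only regions lay in 2 and 6 genes of these lists.

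Of 30 genes of growth restraint and cell death, 8 held one, against 2.76 by length, among them Rb1 with 5 and no WT region and Foxo1 with 5 beside 11. Of 30 cell cycle genes 4 did, against 2.29, with 8 in Cdk6 beside 1 WT region and 1 each in Ccnd3, E2f3 and Mcm6. Polyamine and hypusination genes had 3 of 24, against 1.51, in Atp13a3, a polyamine transporter, Azin1 and Oaz2. LSD1 complexes had 5 of 20, against 2.53, among them Phf21a, a reader of unmethylated H3K4, with 3, and Rcor1, Gse1 and Gfi1 with 1 each. Other H3K4 enzymes had 3 of 18, against 2.56, in Kdm5a, Kmt2d and Kdm5b. Very long genes of neurons, used as a check on length, had 5 of 30, against 7.23. Ptprd held 3 regions and Macrod2, Sox5, Fhit and Immp2l 1 each. WT-only regions lay in 5 genes of growth restraint and cell death, 1 of the cell cycle and 3 of polyamines and hypusination. They lay in 5 genes of LSD1 complexes, 2 of the other H3K4 enzymes and 6 of the long genes of neurons.

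The tissue was marked as liver in both genotypes, with H3K4me2 on Alb over 6.24 kb in WT and 5.56 kb in YAP and on Hnf4a over 14.1 and 10.9 kb, and neither gene held an H3K4me1 region. Of 24 biliary and progenitor markers, 4 held a YAP-only region and none a WT-only one, among them Anxa5, an annexin, with 3, all on H3K4me2 in YAP only, and Pkhd1 and Itga2 with 1 each. Lengths alone would give 2.25, and the defining duct markers Krt7, Krt19, Epcam, Sox9, Spp1 and Cftr held none, with no H3K4me2 on Krt7, Krt19 or Cftr. Over the whole biliary and progenitor list, summed H3K4me2 went from 32.3 kb in WT to 43.4 kb in YAP, with more bases at 13 genes, fewer at 4 and a median log2 of 0.39. No gene of 14 macrophage or of 14 stellate cell markers held a YAP-only region, where lengths alone would give 1.33 and 1.16. Summed H3K4me2 on the macrophage list went from 4.44 kb in WT to 13.0 kb in YAP, with more bases at 8 of the 9 genes with any, and on the stellate list from 11.6 to 5.64 kb. Endothelial markers had Ets1 with 2 and Lyve1 with 1, and lymphocyte markers Ets1 and Bach2. That is 2 of 16 in each list, against 2.83 and 2.35 by length. Summed H3K4me2 on the endothelial list went from 71.3 kb in WT to 37.8 kb in YAP. More bases were covered at 8 of its genes and fewer at 7, with a median log2 of 0.17. On the lymphocyte list the sum went from 45.5 to 48.3 kb, with more bases at 6 genes and fewer at 2. The part that a changed mix of cell types had in the YAP-only regions was not tested.

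LSD1 was rare on the regions in both genotypes. In the YAP list it was on 18 of the 4226 (0.426%, 0.270% to 0.672%) and in the WT list on 10 (0.237%, 0.129% to 0.435%), with 1 region on both. WT-only H3K4me1 regions had 14 (0.341%) and 8 (0.195%), so the order was the same, and the YAP LSD1 list is 1.97 times as long. Within 10 kb LSD1 was listed for 14.2% in YAP and 6.91% in WT, compared with 13.6% and 6.71% of WT-only regions. Zmiz1, a transcriptional coactivator gene, held 2 regions on YAP LSD1, with scores of 65 and 47, the first on H3K4me2 in YAP only. Other regions on YAP LSD1 were in the kinase gene Stk10 (59), Asic5 (59), the ubiquitin ligase gene Mgrn1 (52) and Eps8l2 (47). Regions on WT LSD1 were in Zfp710 (76), Eif1a (52), the ubiquitin ligase gene Fbxl17 (47) and Rcl1 (47). Of these 10 highest-scoring regions, 7 carried H3K4me2 in both genotypes, 1 in YAP only and 2 in neither.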

How the data were processed

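Livers of WT and YAP mice were profiled by ChIP-seq for H3K4me1, H3K4me2 and LSD1. Coordinates are of mm10, and the tools listed per the submitters' processing notes were BWA, Trimmomatic 0.39, Picard 1.126, SAMtools 1.7, deepTools 3.3.0 and bedtools 2.26.0. Which program called the regions, at which threshold and with which input is not given in the sources used here. The authors deposited 1 region list per antibody and genotype, named by the labels of both replicates. Each deposited region has a score, a signal value, and −log10 p and q values. Where p is given, the score equals 10 times the −log10 p without decimals. These values were used only to describe or rank regions within a list. Read depth is unknown from the lists.

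Regions on chromosomes 1 to 19, X and Y were compared by 1 shared base. They were merged within a list to count covered bases and the regions of the LSD1 lists. Gene bodies and start windows came from RefSeq (GRCm38.p6). Shares have Wilson 95% intervals and differences Newcombe intervals, for counting error only. H3K4me2 per gene was log2 of YAP over WT covered bases, 500 added to each, called past 1.5-fold. On simulated regions, the script and bedtools both found 1984 of 1984 planted regions. The named genes were the hosts with most regions, those with the largest H3K4me2 change, the regions highest in score, length or distance or on H3K4me2 of 1 genotype or LSD1, the fixed genes, and list members. The members and lists were chosen with earlier results of these data known. Alternatives changed the gene set, the overlap rule, the score and q limits, the bases added and the distance to H3K4me2 or LSD1.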

Additional observations from a re-analysis of the deposited data

How the results depend on the processing

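No paired analysis was possible because each deposited list stands for both replicates of its antibody and genotype, and for the same reason no replicate could be left out. Of 122 summary values under other settings, 86 stayed within the counting interval or within 1.5 times and 36 moved, and of 341 values of single lists or genes 290 and 51 did. A change of sign was looked for only in the log2 values of the hosts with the largest H3K4me2 gain or fall. None changed sign, but these hosts were picked for large values, so this says nothing about the others. The order of the WT and YAP shares on H3K4me2 turned between settings. With all annotated genes, 50.7% of hosts held a WT region. When a WT region within 1 kb also removed a region, the median distance was 20.01 kb, 40.5% were within 10 kb, 48.5% of hosts held a WT region, and H3K4me2 was on 35.4% in WT and 37.1% in YAP. When only a 50% reciprocal overlap removed one, these were 3.65 kb, 60.4%, 56.8%, 43.3% and 41.8%. With the higher-scoring 50% of each H3K4me1 list, 2257 regions in 1263 hosts remained, with 13.3 kb, 46.7%, 49.96%, 44.4% and 42.9%, 60 hosts with more H3K4me2 and 66 host genes in the lists. With a −log10 q above 0, 2498 regions gave 6.21 kb, 55.6%, 59.8%, 41.9% and 42.1%. With H3K4me2 within 1 kb counted, the shares were 52.8% in WT and 53.0% in YAP, and with the higher-scoring 50% of H3K4me2 regions 23.5% and 22.5%, with a median log2 of -0.057 for hosts. With 2000 bases added in place of 500, that median was -0.069, with 45 hosts more and 95 fewer. LSD1 within 1 kb was listed for 0.852% in WT and 1.85% in YAP. The causes were not tested, beyond that fewer regions enter under stricter lists. The list depth and caller threshold limit every count: a region missing from a list may carry the mark.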

Other observations

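Genes with at least 5 H3K4me1 regions over both lists were grouped by the balance of those regions, a grouping chosen after the data were seen. Of the 715 such genes, 273 had more YAP than WT regions, 372 had fewer and 70 had equal numbers. In the 273, H3K4me2-covered bases were more in YAP at 133 genes and fewer at 140, with a median log2 of -0.01. In the 372, they were more at 65 and fewer at 307, with a median of -0.34, and in the 70 the median was -0.24. Over all 14139 genes with any covered base, they were more at 5826 and fewer at 8217, with a median of -0.05. Both marks may come from the same livers, which the labels do not say.

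The share of YAP-only H3K4me1 regions on H3K4me2 was higher for regions of higher score, in both genotypes. In the 1700 regions of lowest authors' score it was 35.6% in WT and 35.5% in YAP, and in the 942 of highest score 42.6% and 43.4%. Among regions with a −log10 q-value above 0, the shares were 41.9% and 42.1%, and among those at 0 they were 35.7% and 35.6%.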
